A study of Rattus norvegicus with 24 samples.

Results

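The miR-15/16 seed family is a group of microRNAs (miRs) with a closely related seed, the stretch near the 5′ end that pairs with target mRNAs. Members were chosen by name, as the 5p arms of rat miR-15a, miR-15b, miR-16, miR-195, miR-497, miR-322 and miR-503, and these made up 7 of the 758 rat miRs on the array.

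The miRs were profiled in INS1 cells, a rat insulinoma line that stands in for pancreatic β-cells in many studies, on 24 arrays in 8 groups of 3. In 6h_Ctrl and 24h_Ctrl the cells received neither Givinostat nor cytokines, and were collected at 6 h or 24 h. In 6h_Cyt and 24h_Cyt they received the cytokines IL-1β (150 pg/ml) and IFN-γ (0.1 ng/ml) for those times. In 6h_Giv_Ctrl and 24h_Giv_Ctrl they received 125 nM of Givinostat, an inhibitor of lysine deacetylases (histone deacetylases among them), without cytokines. In 6h_Giv_Cyt and 24h_Giv_Cyt they received both drug and cytokines at the same doses, Givinostat being given 1 h ahead of the cytokines. Whether the 3 replicates of a group were independent cultures or technical repeats was not settled by the labels. INS1 is a tumour line, so its levels stand for that line and not for primary islets.

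miRs of this family are loaded into Argonaute proteins, pair through the seed with sites in mRNAs, and lower the stability and translation of those mRNAs. Textbook targets include the anti-apoptotic gene Bcl2 and cell cycle genes such as cyclin D1 and cyclin E1, and the family is best known for slowing proliferation and for promoting apoptosis when its level is high. In most mammals its members are encoded in paired hairpins: miR-15a and miR-15b each lie beside a copy of miR-16, miR-195 lies beside miR-497, and miR-322 (the rodent counterpart of miR-424) lies beside miR-503.

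Mature sequences were found for 6 of the 7 members in a table of RefSeq sequences (build GRCr8); rno-miR-15a-5p is the other member. They are shown because the seed defines the family and the remaining bases set the probes apart. The capitals mark the seed, bases 2 to 8 from the 5′ end, and the 4 miRs that were measurable on all arrays come first.
rno-miR-15b-5p: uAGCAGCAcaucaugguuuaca
rno-miR-16-5p: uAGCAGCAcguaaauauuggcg
rno-miR-195-5p: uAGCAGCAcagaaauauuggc
rno-miR-497-5p: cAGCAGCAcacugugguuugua
rno-miR-322-5p: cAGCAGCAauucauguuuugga
rno-miR-503-5p: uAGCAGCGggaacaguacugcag

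The seed AGCAGCA was shared by 5 members, and rno-miR-503-5p differed from rno-miR-16-5p within the seed by A8G (base of miR-16-5p, position counted from 1 at the 5′ end, base of miR-503-5p). Among the 685 miRs of the array with a sequence in the table, those 5 were all that carried this seed. Compared over all bases from the 5′ end, the seed included, the closest matches cut across the genomic pairs. rno-miR-16-5p and rno-miR-195-5p had the same base at 19 of 21 positions and differed by G10A and U11G, whereas rno-miR-195-5p and its genomic neighbour rno-miR-497-5p matched at 12 of 21. rno-miR-15b-5p matched rno-miR-497-5p and rno-miR-322-5p at 16 of 22 positions each and its genomic neighbour rno-miR-16-5p at 14 of 22.

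The probes' targets, given in rat build rn4 by the array annotation, placed rno-miR-15b-5p at chr2:158992256-158992274 and rno-miR-16-5p at chr2:158992403-158992420, both on the plus strand with 128 bases between them. In the GRCr8 gene table Mir15b and Mir16 lay within the span of Smc4, which encodes a condensin subunit, between Ift80 and Trim59. rno-miR-497-5p mapped to chr10:57073850-57073868 and rno-miR-195-5p to chr10:57074187-57074204, plus strand, 318 bases apart, in a stretch spanned by no other gene between Bcl6b and C10h17orf49. rno-miR-503-5p mapped to chrX:139999883-139999897 and rno-miR-322-5p to chrX:140000185-140000204, minus strand, 287 bases apart, within the uncharacterized gene LOC102550366 and beside Mir351, Mir450a1, Mir450b-1 and Mir542. Each range is copied as given and spans 1 base fewer than the longer probe. The gene table held spans only, so exon and intron could not be told apart. The annotation gave no position for the rno-miR-15a-5p probes.

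Each miR was read by 2 probes of unequal length with 8 spots each, and its level on an array was the mean of the 16 spots after quantile normalization and log2 transformation. Detection on an array meant that 8 or more of those 16 spots were well above background by the feature extraction software, and "well above background" is used for a miR in this sense. rno-miR-15b-5p, rno-miR-16-5p, rno-miR-195-5p and rno-miR-497-5p passed on all 24 arrays, as did 117 of the 758 miRs. rno-miR-15a-5p passed on 1 array, with log2 values between 5.54 and 5.85, rno-miR-322-5p on 0 arrays (5.61 to 5.89) and rno-miR-503-5p on 0 arrays (5.31 to 5.47). For these 3 members the values are upper bounds on the level and a fold change would be set by background. A probe's brightness also depends on its sequence, so no probe's level was set against another's.

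The label of the cells was compared with marker miRs. The islet-enriched rno-miR-375-3p and rno-miR-7a-5p and the epithelial rno-miR-200c-3p and rno-miR-141-3p were well above background on 24 of 24 arrays. Of 13 miRs that mark liver, muscle, blood, endothelial or stromal cells, 10 passed on 0 arrays, as did 534 of all 758 miRs, so a value of 0 says little about the cells. Of the rest, rno-miR-1-3p passed on 3 and rno-miR-126a-3p on 2. The muscle miR rno-miR-206-3p was the exception, with 24 arrays and log2 values from 6.58 to 7.55.

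rno-miR-16-5p, the most widely expressed member in mammalian tissues, was read at 9.93, 9.99 and 9.91 in 6h_Ctrl, 9.95, 9.93 and 10.003 in 6h_Cyt, 10.12, 9.64 and 9.57 in 6h_Giv_Ctrl, and 10.03, 9.99 and 9.51 in 6h_Giv_Cyt (log2, replicates 1 to 3). At 24 h it was 9.89, 9.85 and 9.99 in 24h_Ctrl, 10.07, 10.06 and 9.91 in 24h_Cyt, 9.83, 10.01 and 10.004 in 24h_Giv_Ctrl, and 9.75, 9.84 and 9.92 in 24h_Giv_Cyt. All groups overlapped with their comparison groups, and the spread was widest in the Givinostat groups at 6 h. Group means ran from 10.01 in 24h_Cyt through 6h_Cyt, 24h_Giv_Ctrl, 6h_Ctrl, 24h_Ctrl, 6h_Giv_Cyt and 24h_Giv_Cyt down to 9.78 in 6h_Giv_Ctrl. No neighbours in this order were more than 0.07 apart, against a pooled SD within groups of 0.16.

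rno-miR-15b-5p, its partner in the Smc4 locus, was read at 9.30, 9.34 and 9.24 in 6h_Ctrl, 9.39, 9.30 and 9.42 in 6h_Cyt, 9.51, 9.11 and 8.93 in 6h_Giv_Ctrl, and 9.30, 9.26 and 8.87 in 6h_Giv_Cyt. The values at 24 h were 9.45, 9.17 and 9.39 in 24h_Ctrl, 9.49, 9.37 and 9.34 in 24h_Cyt, 9.27, 9.32 and 9.48 in 24h_Giv_Ctrl, and 9.08, 9.31 and 9.13 in 24h_Giv_Cyt. The 3 arrays of 24h_Giv_Cyt were all below the 3 of 24h_Cyt, the only one of the 12 pairwise comparisons in which a member measurable on all arrays did not overlap; 126 of the 758 miRs (16.6%) did not overlap there. Means fell in the order 24h_Cyt (9.40), 6h_Cyt, 24h_Giv_Ctrl, 24h_Ctrl, 6h_Ctrl, 6h_Giv_Ctrl, 24h_Giv_Cyt and 6h_Giv_Cyt (9.14). The widest step between neighbours, 0.11 from 6h_Ctrl to 6h_Giv_Ctrl, was within the pooled SD of 0.16.

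rno-miR-195-5p was read at 6.26, 6.58 and 6.44 in 6h_Ctrl, 6.48, 6.28 and 6.51 in 6h_Cyt, 6.83, 6.20 and 6.19 in 6h_Giv_Ctrl, and 6.53, 6.37 and 6.07 in 6h_Giv_Cyt. At 24 h the arrays read 6.48, 6.29 and 6.38 in 24h_Ctrl, 6.66, 6.45 and 6.41 in 24h_Cyt, 6.34, 6.46 and 6.63 in 24h_Giv_Ctrl, and 6.18, 6.45 and 6.35 in 24h_Giv_Cyt. Its group means spanned 6.50 (24h_Cyt) to 6.32 (6h_Giv_Cyt), a range of 0.18 that was smaller than the pooled SD of 0.19. Between these ends lay, from high to low, 24h_Giv_Ctrl, 6h_Ctrl, 6h_Cyt, 6h_Giv_Ctrl, 24h_Ctrl and 24h_Giv_Cyt, with steps of at most 0.06.

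rno-miR-497-5p, from the same cluster, was read at 6.54, 6.88 and 6.80 in 6h_Ctrl, 6.79, 6.54 and 6.81 in 6h_Cyt, 7.13, 6.44 and 6.41 in 6h_Giv_Ctrl, and 6.86, 6.73 and 6.23 in 6h_Giv_Cyt. In the later groups it was 6.86, 6.59 and 6.76 in 24h_Ctrl, 6.85, 6.63 and 6.68 in 24h_Cyt, 6.65, 6.77 and 6.92 in 24h_Giv_Ctrl, and 6.43, 6.75 and 6.63 in 24h_Giv_Cyt. The means, from 6.78 in 24h_Giv_Ctrl over 6h_Ctrl, 24h_Ctrl, 24h_Cyt, 6h_Cyt, 6h_Giv_Ctrl and 6h_Giv_Cyt to 6.60 in 24h_Giv_Cyt, covered 0.18 against a pooled SD of 0.23. No step between neighbours exceeded 0.06. For all 4 miRs the highest array was replicate 1 of 6h_Giv_Ctrl and the lowest was replicate 3 of 6h_Giv_Cyt.

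**Figure D1:**
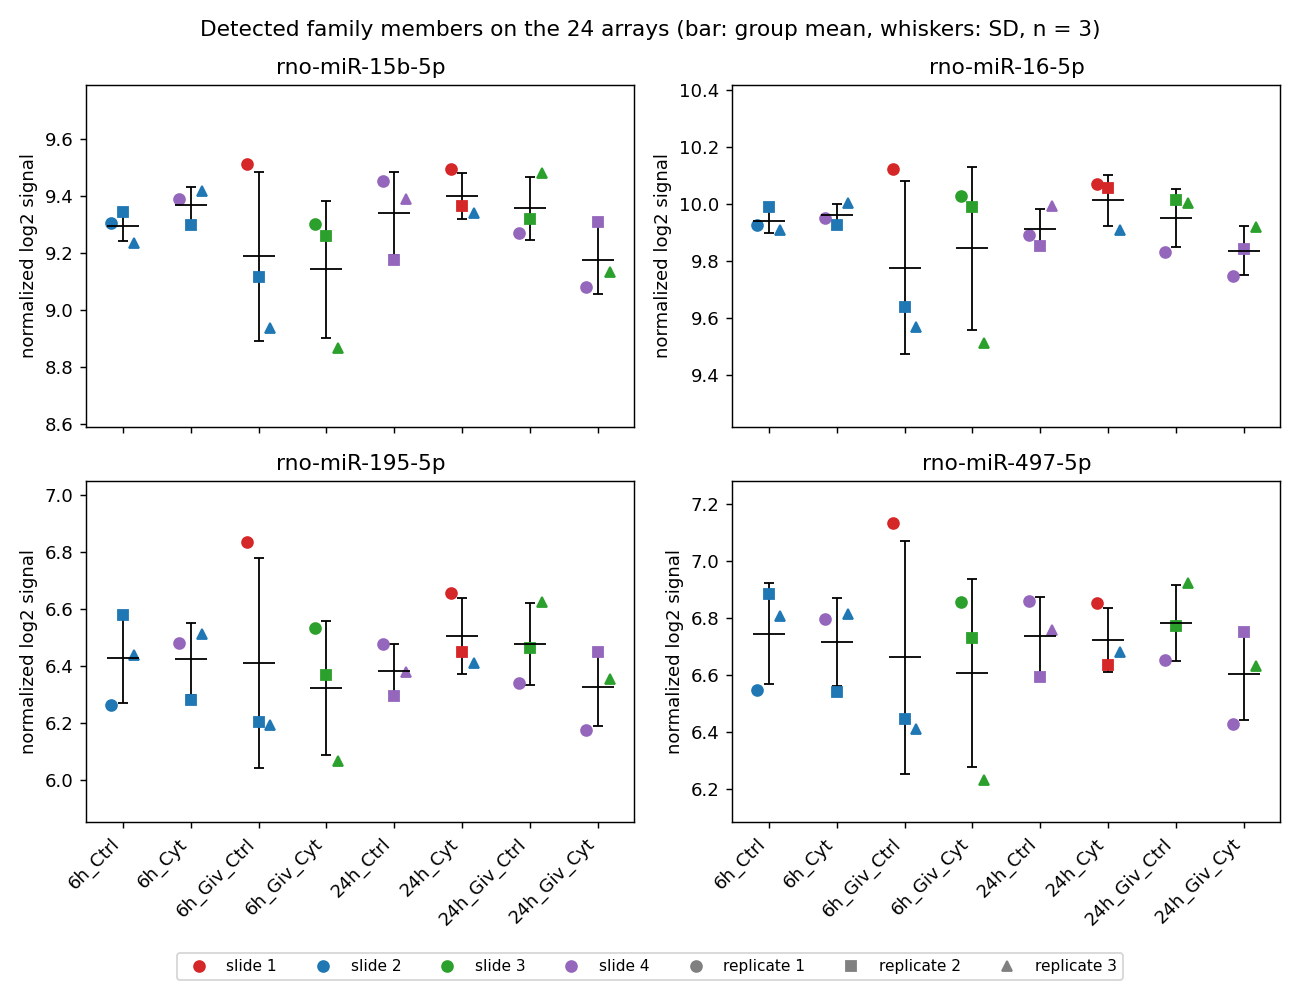
Normalized log2 signal of rno-miR-15b-5p, rno-miR-16-5p, rno-miR-195-5p and rno-miR-497-5p (vertical axes, each 1.2 log2 units tall) on the 24 arrays by group (horizontal axis). Points are arrays, with colour for the slide and shape for the replicate number, bars are group means and whiskers the SD of 3 arrays. In every panel the group means differ by less than 0.3 and the 6h_Giv_Ctrl arrays spread the most.

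No member of the family was called in any of the 18 comparisons (12 between groups, 3 effects averaged over the design and 3 differences between effects). A call required an adjusted p below 0.05 in limma, adjusted by the Benjamini-Hochberg method over the 758 miRs, and an absolute log2 fold change (log2FC) above 0.14, the log2 of 1.1. The background of calls over the 758 miRs was 31 (4.09%) in 24h_Cyt vs 24h_Ctrl and 4 (0.528%) in its counterpart with Givinostat, 24h_Giv_Cyt vs 24h_Giv_Ctrl. Across time it was 6 (0.792%) in 24h_Cyt vs 6h_Cyt and 3 (0.396%) in 24h_Giv_Cyt vs 6h_Giv_Cyt, and for Givinostat added to cytokines, 24h_Giv_Cyt vs 24h_Cyt, it was 1 (0.132%). It was 10 (1.32%) for cytokines averaged over times and Givinostat, 2 (0.264%) for 24 h against 6 h averaged over treatments, 4 (0.528%) for the 24 h minus the 6 h cytokine effect, and 0 (0%) in each of the other 10 comparisons. With shares this low, 0 calls among 7 members did not set the family apart. At an unadjusted p below 0.05, 2 of the 126 member tests passed. Over all 758 miRs the number at that level ran from 12 for the change of the cytokine effect by Givinostat at 6 h to 180 in 24h_Cyt vs 24h_Ctrl. A fit with a pooled correlation over the 16 spots called 0 members as well. That fit took the spots of both probes as repeats, so the gap between probes entered its spread and its 0 calls say little. In bulk RNA, fewer cells that carry a miR and less of it per cell cannot be told apart.

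The 2 passing member tests were rno-miR-15a-5p in 24h_Cyt vs 24h_Ctrl and rno-miR-15b-5p for Givinostat. In that cytokine comparison 180 of the 758 miRs (23.7%) had an unadjusted p below 0.05. The mean signal of rno-miR-15a-5p was 5.73 against 5.61, a difference of 0.12 (adjusted p = 0.140) at a level near background, so no fold is given. For Givinostat averaged over times and cytokines 37 of 758 (4.88%) passed at that level. rno-miR-15b-5p had a mean of 9.22 with and 9.35 without Givinostat, a log2FC of −0.13 (SE 0.06, 95% interval −0.27 to −0.003, adjusted p = 0.830 in limma), which failed the correction.

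In cells exposed to cytokines for 24 h, the comparison with the largest number of calls, the family showed no call. The log2FC of 24h_Cyt vs 24h_Ctrl was 0.06 for rno-miR-15b-5p (95% interval −0.20 to 0.32, adjusted p = 0.796), 0.10 for rno-miR-16-5p (−0.16 to 0.37, adjusted p = 0.668), 0.12 for rno-miR-195-5p (−0.20 to 0.44, adjusted p = 0.668) and −0.02 for rno-miR-497-5p (−0.39 to 0.35, adjusted p = 0.961), all by limma. For rno-miR-15b-5p, rno-miR-16-5p and rno-miR-497-5p these intervals leave room for a change of up to 1.25-fold, 1.29-fold and 1.28-fold upward. Downward they reach 0.869, 0.892 and 0.766 of the control level, so equal levels were not shown. These limits hold for signal without background correction, and the change of the miR itself may be larger. This applies most to rno-miR-497-5p, which read nearer to background than rno-miR-15b-5p and rno-miR-16-5p. As the shorter rno-miR-195-5p probe read near background and is part of that level, no fold limit is given for rno-miR-195-5p. The median log2FC was 0.08 over the 4 measurable members, −0.06 over the 117 miRs and −0.01 over all 758. The signs were not stable: with slide as a fixed block the values of rno-miR-15b-5p, rno-miR-16-5p and rno-miR-195-5p were −0.10, −0.14 and −0.05, and with processed signal scaled to the 75th percentile those of rno-miR-15b-5p and rno-miR-16-5p were −0.01 and −0.12. With array brightness as a covariate rno-miR-15b-5p, rno-miR-16-5p and rno-miR-195-5p were at −0.44, −0.37 and −0.38, below the lower ends of the intervals above and not called. No slide held arrays of both groups.

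Averaged over both times and over the presence of Givinostat, the cytokine effect was −0.02 for rno-miR-15b-5p, 0.02 for rno-miR-16-5p, −0.03 for rno-miR-195-5p and −0.07 for rno-miR-497-5p, none called. Averaging narrowed the 95% intervals to −0.16 to 0.11, −0.11 to 0.15, −0.19 to 0.13 and −0.25 to 0.12. At 6 h the 6h_Cyt vs 6h_Ctrl values were 0.07, 0.02, −0.003 and −0.03 in the same order of members, and within slide 2, which held 2 and 3 arrays of these groups, 0.06, 0.02, −0.03 and −0.07. In the presence of Givinostat at 24 h (24h_Giv_Cyt vs 24h_Giv_Ctrl) they were −0.18, −0.11, −0.15 and −0.18. Within slide 3 (1 against 2 arrays) the last comparison gave −0.27, −0.09, −0.19 and −0.22, and within slide 4 (2 against 1) −0.07, −0.04, −0.03 and −0.06. The averaged cytokine effect turned in other settings, to values outside the intervals above. Without normalization rno-miR-15b-5p, rno-miR-195-5p (called) and rno-miR-497-5p were at 0.37, 0.22 and 0.23, and with array brightness as a covariate rno-miR-16-5p was at −0.14.

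For Givinostat, the values of all 4 measurable members were below 0 when averaged over times and cytokines, but none was called and the sign depended on scaling: without normalization rno-miR-195-5p and rno-miR-497-5p were at 0.01 and 0.0085. The averaged values were −0.13 for rno-miR-15b-5p, −0.10 for rno-miR-16-5p, −0.05 for rno-miR-195-5p and −0.07 for rno-miR-497-5p, with adjusted p = 0.830, 0.830, 0.865 and 0.865 in limma. Among cytokine-treated cells the 24h_Giv_Cyt vs 24h_Cyt values were −0.23 (95% interval −0.49 to 0.04), −0.18 (−0.44 to 0.09), −0.18 (−0.50 to 0.14) and −0.12 (−0.49 to 0.25). Signs turned here too, to 0.0076 for rno-miR-497-5p with processed signal and 0.013 for rno-miR-16-5p with slide as a fixed block. With brightness as a covariate rno-miR-16-5p, rno-miR-195-5p and rno-miR-497-5p were at 0.019, 0.030 and 0.10. At 6 h, 6h_Giv_Cyt vs 6h_Cyt gave −0.23, −0.12, −0.10 and −0.11 for rno-miR-15b-5p, rno-miR-16-5p, rno-miR-195-5p and rno-miR-497-5p, and no slide held arrays of both groups. Without cytokines the values were −0.11, −0.17, −0.02 and −0.08 at 6 h (6h_Giv_Ctrl vs 6h_Ctrl) and 0.02, 0.04, 0.09 and 0.04 at 24 h (24h_Giv_Ctrl vs 24h_Ctrl). Within slide 2, which leaves out replicate 1 of 6h_Giv_Ctrl, the 6 h values were −0.27, −0.34, −0.23 and −0.32 (2 against 3 arrays). Within slide 4 (1 against 3 arrays) the 24 h values were −0.07, −0.08, −0.04 and −0.08, and no slide held arrays of both 24h_Giv_Cyt and 24h_Cyt.

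Between 6 h and 24 h the averaged difference was 0.07 for rno-miR-15b-5p, 0.05 for rno-miR-16-5p, 0.03 for rno-miR-195-5p and 0.03 for rno-miR-497-5p. With array brightness as a covariate these 4 values were −0.06, −0.07, −0.10 and −0.11, so no direction can be given. The change of the cytokine effect by Givinostat at 24 h was −0.24, −0.22, −0.27 and −0.16 in the same order. Its 95% intervals ran from −0.62 to 0.13, −0.59 to 0.16, −0.72 to 0.18 and −0.69 to 0.36.

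**Figure D2:**
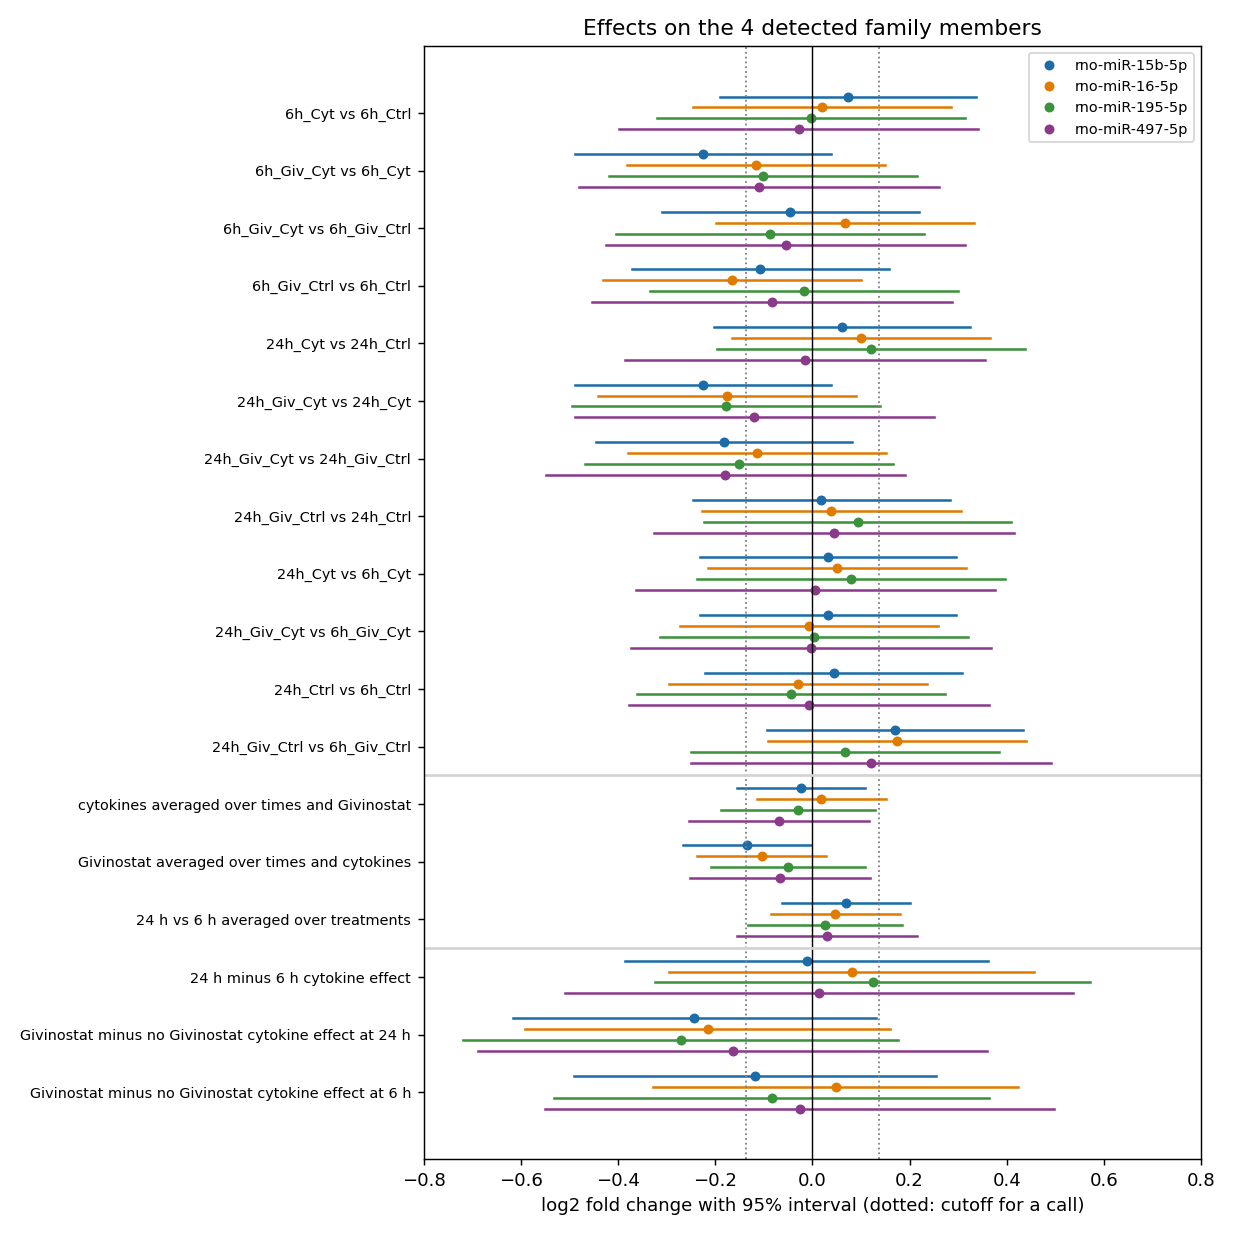
Log2 fold changes (points) with 95% intervals (lines) of the 4 measurable members (colours) in the 18 comparisons (vertical axis), with dotted lines at the log2 of 1.1 to either side of 0. Every interval reaches 0 except that of rno-miR-15b-5p for Givinostat averaged over times and cytokines, which ends at −0.003.

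Before normalization the arrays differed in brightness, and with it the family. Brightness was the 75th percentile of an array's background-subtracted processed signal, taken from the 117 miRs detected on every array and not from all 758. Brightness ran from 270.6 intensity units (replicate 2 of 24h_Ctrl) to 1003 (replicate 1 of 24h_Cyt). Its group medians were 742 in 24h_Cyt, 542 in 24h_Giv_Cyt and 347 in 24h_Ctrl. Without normalization the median log2FC of 24h_Cyt vs 24h_Ctrl was 0.83 over the 117 miRs and 0.04 over all 758, and the rule called 173 of 758 miRs (22.8%) and 6 of the 7 members, rno-miR-503-5p being the other. The unnormalized log2FC was 1.16 for rno-miR-15b-5p, 1.09 for rno-miR-16-5p, 0.72 for rno-miR-195-5p and 0.72 for rno-miR-497-5p. Relative to the median of the 117 miRs these were 0.33, 0.26, −0.12 and −0.11. The unnormalized signal behind these values was not background-corrected, and rno-miR-195-5p and rno-miR-497-5p read nearer to background. A split between the loci is therefore not shown. The averaged cytokine effects of rno-miR-15b-5p minus those of rno-miR-195-5p and rno-miR-497-5p were 0.15 and 0.14 without normalization. With processed signal these differences were −0.08 and −0.01. The same rule without normalization called 122 miRs (16.1%) and 4 members (the measurable ones) in 24h_Cyt vs 6h_Cyt, 323 miRs (42.6%) and 1 member (rno-miR-15a-5p) in 24h_Giv_Cyt vs 24h_Giv_Ctrl, and 157 miRs (20.7%) and 1 member (rno-miR-195-5p) for the averaged cytokine effect. In the remaining 14 comparisons it called 0 members. What set the brightness of the arrays apart was not tested.

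After normalization a relation of the members to array brightness was not established. Pearson's r with the log2 brightness over 24 arrays was 0.41 for rno-miR-15b-5p (permutation p = 0.0433), 0.42 for rno-miR-16-5p (0.0399), 0.43 for rno-miR-195-5p (0.0358) and 0.25 for rno-miR-497-5p (0.234). Spearman's rho was 0.42 (permutation p = 0.0414), 0.47 (0.0229), 0.33 (0.114) and 0.14 (0.506). None of these 4 relations passed the correction (adjusted p for r 0.0577, 0.0577, 0.0577 and 0.234; for rho 0.0828, 0.0828, 0.152 and 0.506). Without the 2 arrays farthest from the median brightness r was 0.31, 0.30, 0.34 and 0.25. Within slides the relation was not consistent: r was 0.58, 0.69, 0.62 and 0.61 in slide 3, but 0.41, 0.19, −0.05 and −0.12 in slide 2 and −0.27, −0.43, −0.16 and −0.27 in slide 4, while slide 1 held 3 arrays, too few for a value.

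What the members shared was their variation from array to array. On 16 of 24 arrays all 4 measurable members deviated to the same side of their group mean. On replicate 1 of 6h_Giv_Ctrl the deviations were 0.33 for rno-miR-15b-5p, 0.35 for rno-miR-16-5p, 0.42 for rno-miR-195-5p and 0.47 for rno-miR-497-5p. On replicate 3 of 6h_Giv_Cyt they were −0.28, −0.33, −0.26 and −0.37. Those arrays were the extremes for each of the 4. The former sat on slide 1, which held also replicates 1 and 2 of 24h_Cyt and whose files carried another label in their names.

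**Figure D3:**
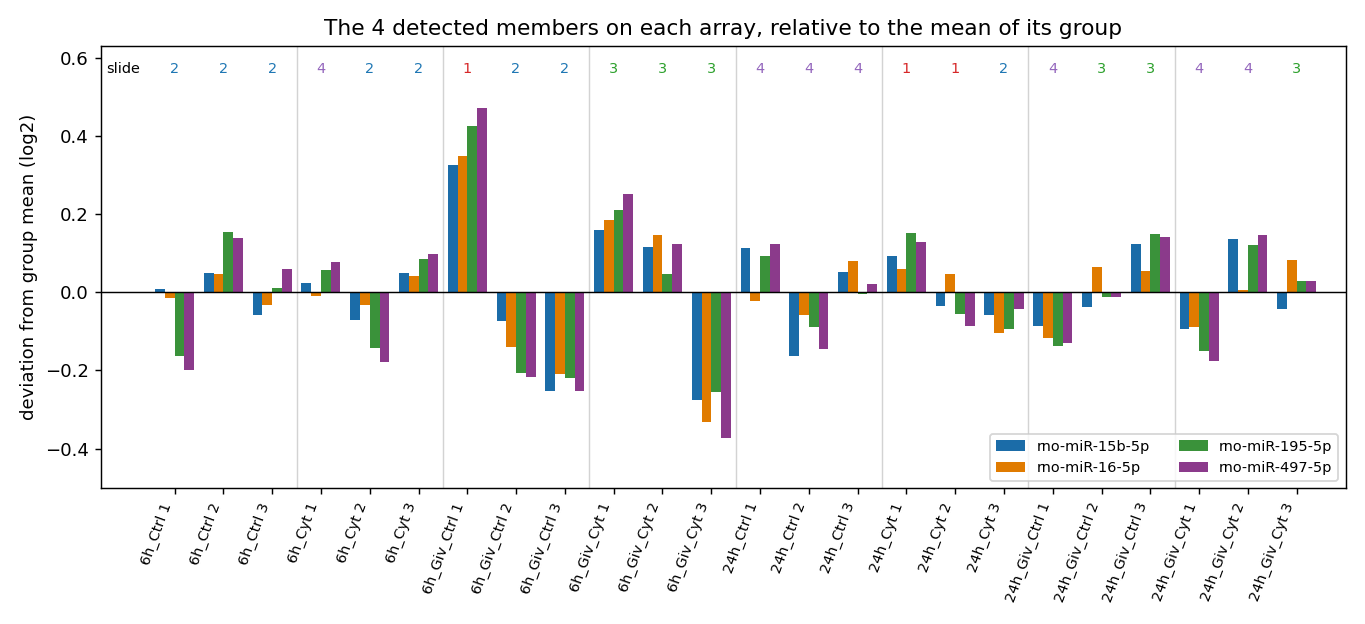
Deviation of each array from the mean of its group (vertical axis, log2) for the 4 measurable members (colours), with the slide of each array above the bars and the arrays in order of group and replicate along the horizontal axis. The tallest bars are those of replicate 1 of 6h_Giv_Ctrl, from 0.33 to 0.47, and the lowest those of replicate 3 of 6h_Giv_Cyt, from −0.26 to −0.37.

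Over the 24 arrays all 6 pairs of members were correlated, from r = 0.83 for rno-miR-16-5p with rno-miR-195-5p (rho 0.79) to r = 0.96 for rno-miR-195-5p with rno-miR-497-5p (rho 0.95). The pair from the Smc4 locus, rno-miR-15b-5p and rno-miR-16-5p, had r = 0.88 and rho 0.74. All 6 permutation p for r were 1e-05, the smallest that 100000 permutations can give (adjusted 1e-05), and those for rho ran from 1e-05 to 0.00021 (adjusted 2e-05 to 0.00021). Without the 2 farthest arrays r was 0.78, 0.94 and 0.74 for these pairs in the order given. Within slides 2, 3 and 4 it was 0.77, 0.90 and 0.67 for rno-miR-16-5p with rno-miR-195-5p, 0.98, 0.98 and 0.97 for rno-miR-195-5p with rno-miR-497-5p, and 0.96, 0.90 and 0.80 for rno-miR-15b-5p with rno-miR-16-5p. The p-values take the 24 arrays as independent, which the labels leave unsettled.

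Correlations of this size were also found outside the family. Among all 6786 pairs of the 117 miRs the median r was 0.02, the upper quartile was 0.61, and 10.9% were at or above the lowest pair of members. At or above the r of rno-miR-195-5p with rno-miR-497-5p lay 1.06% of the pairs. Whether the members were more alike than other miRs was not tested. A single component held 86.1% of the variance within groups of the 117 miRs, and the correlation with it was 0.88 for rno-miR-15b-5p, 0.86 for rno-miR-16-5p, 0.96 for rno-miR-195-5p and 0.98 for rno-miR-497-5p. With the sign set so that the members are positive, 73 of the 117 miRs were above 0.5 and 37 below −0.5. What this component reflects was not tested.

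The miRs most alike in pattern, by r over the 24 arrays among the 117, were for rno-miR-15b-5p rno-miR-25-3p (0.94), rno-miR-342-3p (0.91) and rno-miR-344a-3p (0.90), and for rno-miR-16-5p rno-miR-15b-5p (0.88), rno-miR-344a-3p (0.87) and rno-miR-151-5p (0.86). For rno-miR-195-5p they were rno-miR-497-5p (0.96), rno-miR-301a-3p (0.93) and rno-miR-344a-3p (0.93), and for rno-miR-497-5p rno-miR-195-5p (0.96), rno-miR-324-5p (0.96) and rno-miR-344a-3p (0.94). Each genomic partner was thus among the 3 nearest for 3 of the 4 members, rno-miR-15b-5p being the exception.

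Differences between members within an array were steadier than the members themselves. The SD within groups was 0.19 for rno-miR-195-5p and 0.23 for rno-miR-497-5p, but 0.05 for their difference, and it was 0.16 for rno-miR-15b-5p and for rno-miR-16-5p but 0.08 for their difference. The other 4 pairs had an SD of 0.09 to 0.12. This precision allowed a test of whether treatments changed members unequally, with exact permutation of labels within the other factors (160000 labellings, two-sided, 18 tests over 6 pairs and 3 effects). None of the 18 differences passed the correction. The smallest exact p was 0.0179 (adjusted p = 0.323), for a Givinostat effect of rno-miR-15b-5p 0.08 below that of rno-miR-195-5p. Next came a cytokine effect of rno-miR-16-5p 0.09 above that of rno-miR-497-5p (exact p = 0.0613, adjusted p = 0.496). The level of rno-miR-195-5p includes its shorter probe, which read near background. With the longer probe of each miR only, chosen after seeing the data, the first of these differences was −0.07 (exact p = 0.231, adjusted p = 0.694) and 0 of 18 passed. The exact tests exchanged labels across slides, and several groups sat on a single slide. With slide as a fixed block instead (least squares and t test, also chosen after seeing the data) 0 of 18 passed, and the smallest adjusted p was 0.746.

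For Givinostat the count of 0 depended on the processing. With normexp background correction the difference of −0.09 between rno-miR-15b-5p and rno-miR-195-5p passed (exact p = 0.00184, adjusted p = 0.0331). With the processed signal, which was background-subtracted and scaled to the 75th percentile in place of quantile normalization, 4 differences passed, all of them between a Smc4-locus miR and a miR of the Mir497 and Mir195 cluster. The Givinostat effect of rno-miR-15b-5p minus that of rno-miR-195-5p was −0.15 (exact p = 0.0003, adjusted p = 0.0024), and minus that of rno-miR-497-5p −0.13 (exact p = 0.00085, adjusted p = 0.00382). For rno-miR-16-5p the same differences were −0.18 (exact p = 0.0004, adjusted p = 0.0024) and −0.16 (exact p = 0.000325, adjusted p = 0.0024). With the longer probes only, the 4 were −0.16, −0.14, −0.19 and −0.18 and passed again (adjusted p = 0.0009, 0.00101, 0.0009 and 0.0009). They did not pass in all settings: in the main fit they were −0.08, −0.07, −0.05 and −0.04, and with the deposited log2 table −0.11, −0.07, −0.04 and 0.0055, none passing. Without normalization they were −0.15, −0.15, −0.16 and −0.16, about as large as with processed signal, and none passed either (adjusted p = 0.228 for each). With slide as a fixed block the processed signal gave −0.08, −0.09, −0.09 and −0.10, none passing (adjusted p = 0.522, 0.522, 0.199 and 0.522), and the difference found with normexp was −0.05 (adjusted p = 0.814). In that fit of the processed signal 1 other difference passed, a cytokine effect of rno-miR-16-5p 0.08 below that of rno-miR-195-5p (adjusted p = 0.0273).

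Of the 12 other arms of the hairpins and other miRs of the clusters on the array, 0 were well above background on all arrays, rno-miR-195-3p passed on 3 arrays and the other 11 on 0, and none was called in the 18 comparisons. rno-miR-450a-3p had an adjusted p of 0.0453 in 24h_Cyt vs 24h_Ctrl (limma), with a difference of −0.07 (5.39 against 5.46) that was under the cutoff and at background level.

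As relatives, miR-103 and miR-107, whose seed is that of miR-16 moved by a base, and the miR-17 seed family, which also acts on cell cycle genes, were read on the same arrays. Their sequences are shown for the shifted seed and for the unrelated seed (capitals, bases 2 to 8).
rno-miR-103-3p: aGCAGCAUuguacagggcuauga
rno-miR-107-3p: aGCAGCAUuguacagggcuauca
rno-miR-93-5p: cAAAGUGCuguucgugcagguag
rno-miR-106b-5p: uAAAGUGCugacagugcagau
rno-miR-93-5p and rno-miR-106b-5p, both within Mcm7 on chromosome 12 with Mir25, were the members of the miR-17 seed family well above background on all arrays, while miR-17, miR-20a and miR-20b passed on 0.

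rno-miR-93-5p was 9.21, 9.08 and 9.24 in 24h_Ctrl and 8.71, 8.73 and 8.88 in 24h_Cyt. It fell in all 3 arrays relative to all 3 controls, by 0.40 on the log2 scale (SE 0.07, 95% interval −0.55 to −0.25, limma adjusted p = 0.00208), and was called. With Givinostat it was 9.08, 9.03 and 9.25 in 24h_Giv_Ctrl and 8.67, 8.74 and 8.83 in 24h_Giv_Cyt, a log2FC of −0.38 (−0.52 to −0.23, adjusted p = 0.00842) that was also called but not examined under the alternatives. Its neighbour in the gene, rno-miR-106b-5p, was 9.16, 9.07 and 9.40 in 24h_Ctrl and 9.60, 9.47 and 9.58 in 24h_Cyt, a log2FC of 0.34 (0.07 to 0.61) that was not called (adjusted p = 0.118). The log2FC was −0.19 for rno-miR-103-3p (adjusted p = 0.303) and −0.17 for rno-miR-107-3p (adjusted p = 0.285). The call of rno-miR-93-5p in 24h_Cyt vs 24h_Ctrl was lost in other fits, with a log2FC of −0.40 (adjusted p = 0.433) with a pooled correlation over spots, −0.40 (0.377) with slide as a fixed block, −0.41 (0.106) with brightness as a covariate and −0.29 (0.290) without slide 1. Its size thus changed little in the first 3 of these, and without normalization its log2FC was 0.64, called upward (adjusted p = 0.0125) but below the median of 0.83 over the 117 miRs.

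Whether cytokines, Givinostat or time acted unequally on members and these 4 relatives was examined in 48 exact tests, added after the data were seen. The cytokine effect of rno-miR-16-5p lay 0.17 above that of rno-miR-107-3p (0.02 against −0.15, exact p = 0.000975, adjusted p = 0.0468), and none of the other differences passed. This call was not stable. With slide as a fixed block the difference was 0.15 (adjusted p = 0.0909) and 0 of 48 passed, and with the longer probes only 0 passed. Leaving out 1 array gave 0 passing differences for 16 of 24 arrays, 1 for 1 array and more for 7. The counts were 7 without replicate 1 of 6h_Giv_Ctrl, 6 without replicate 2 of 6h_Cyt, 5 without replicate 1 of 6h_Ctrl, 4 without replicate 3 of 24h_Ctrl, 3 without replicate 1 or 3 of 6h_Giv_Cyt, and 2 without replicate 3 of 24h_Giv_Cyt. For rno-miR-15b-5p the largest difference was 0.17 above rno-miR-93-5p in the cytokine effect (exact p = 0.0307, adjusted p = 0.164), and for rno-miR-497-5p 0.18 below rno-miR-106b-5p (exact p = 0.00368, adjusted p = 0.0686). A smaller difference of rno-miR-15b-5p had a lower p, 0.13 above rno-miR-107-3p in the cytokine effect (exact p = 0.00445, adjusted p = 0.0686). The cytokine effect of rno-miR-195-5p lay 0.14 below that of rno-miR-106b-5p (exact p = 0.00571, adjusted p = 0.0686).

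**Figure D4:**
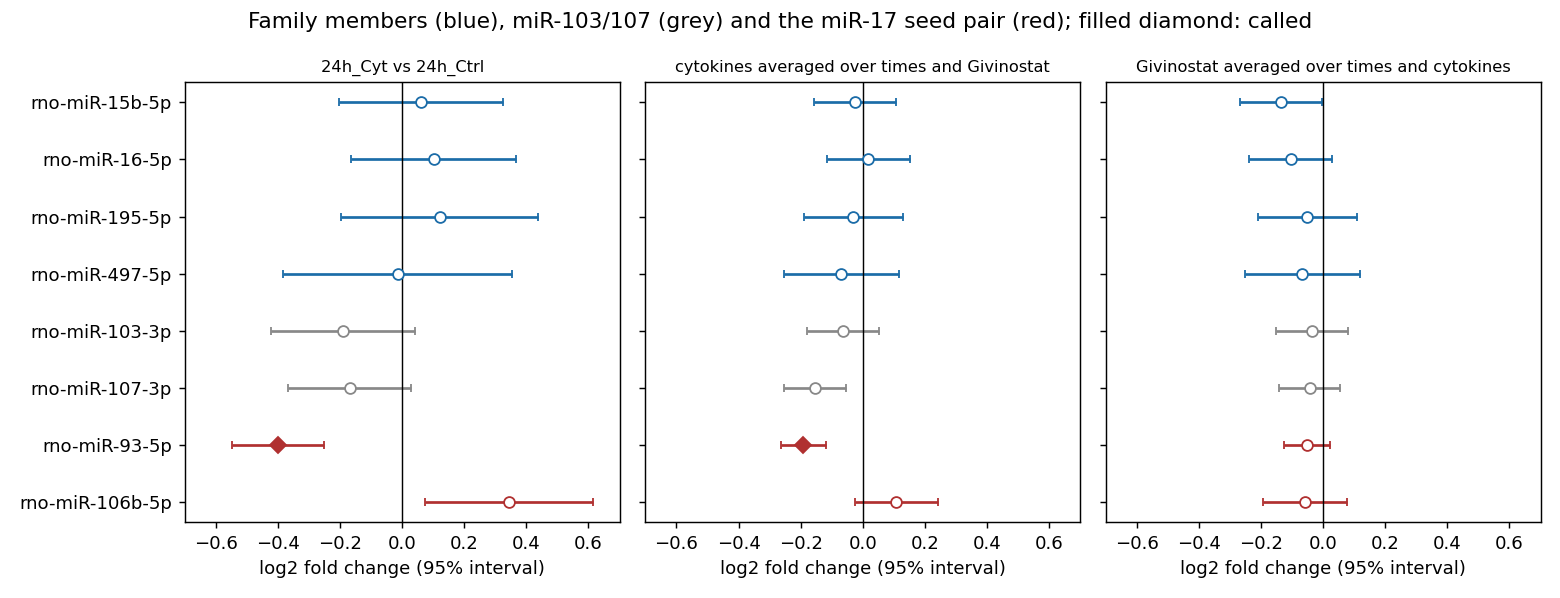
Log2 fold changes with 95% intervals (horizontal axes) of the 4 measurable members (blue), miR-103 and miR-107 (grey) and the pair with the miR-17 seed (red) in 24h_Cyt vs 24h_Ctrl and for the averaged cytokine and Givinostat effects. Filled diamonds mark calls, which are those of rno-miR-93-5p at −0.40 (24h_Cyt vs 24h_Ctrl) and −0.19 (averaged cytokine effect), and open circles the rest. The call at −0.19 was not examined under the alternatives.

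The 2 probes of a measurable member end at different bases of the seed, as the probes of the look-alike pair rno-miR-16-5p and rno-miR-195-5p show (capitals mark the bases opposite the seed).
rno-miR-16-5p, shorter probe: cgccaatatttacgTGCT
rno-miR-16-5p, longer probe: cgccaatatttacgTGCTG
rno-miR-195-5p, shorter probe: gccaatatttctgTGCTG
rno-miR-195-5p, longer probe: gccaatatttctgTGCTGC
The longer rno-miR-195-5p probe is complementary to rno-miR-16-5p at 17 of 19 bases, and the longer rno-miR-16-5p probe to rno-miR-195-5p at 16 of 19. The longer rno-miR-15b-5p and rno-miR-497-5p probes match each other's miR at 15 of 20. How far a probe read the related miR was not tested.

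Spots well above background made up 100% for both probes of rno-miR-15b-5p and rno-miR-16-5p. For rno-miR-195-5p they were 100% for the longer and 15.1% for the shorter probe, and for rno-miR-497-5p 99.5% and 80.2%. Detection of rno-miR-195-5p thus rested on its longer probe, while its level averaged the spots of both. Between the 2 probes of a miR, r over 24 arrays was 0.76 for rno-miR-15b-5p (permutation p = 1e-05, rho 0.68 with permutation p = 0.00039), 0.60 for rno-miR-16-5p (0.00304, rho 0.53 with 0.00888), 0.88 for rno-miR-195-5p (1e-05, rho 0.86 with 1e-05) and 0.88 for rno-miR-497-5p (1e-05, rho 0.94 with 1e-05). Without the 2 farthest arrays r was 0.74, 0.68, 0.84 and 0.87.

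The probes of rno-miR-16-5p gave unlike values in 24h_Cyt vs 24h_Ctrl, 0.23 for the longer and −0.03 for the shorter. For rno-miR-15b-5p and rno-miR-497-5p the longer and shorter probes gave 0.11 and 0.01, and −0.03 and 0.001, and the longer rno-miR-195-5p probe gave 0.12. The averaged cytokine effect was 0.09 for the longer and −0.06 for the shorter rno-miR-16-5p probe. It was −0.008 and −0.04 for rno-miR-15b-5p, −0.07 and −0.07 for rno-miR-497-5p, and −0.03 for the longer rno-miR-195-5p probe. The averaged Givinostat effect was −0.17 and −0.10 for rno-miR-15b-5p, −0.15 and −0.06 for rno-miR-16-5p, and −0.11 and −0.02 for rno-miR-497-5p, and it was −0.10 for the longer rno-miR-195-5p probe. The shorter rno-miR-195-5p probe read near background, so no difference is given for it. In the other 3 members the longer probe had the lower Givinostat value, and this difference between probes was not tested.

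**Figure D5:**
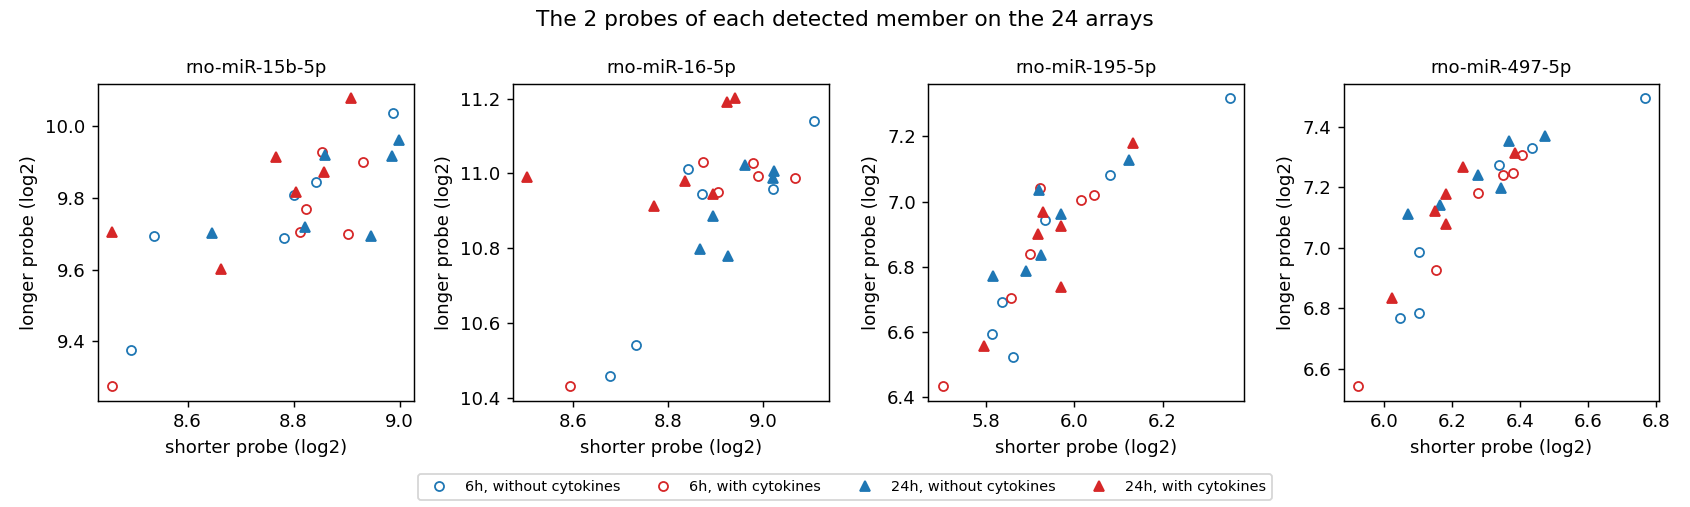
Log2 signal of the longer probe (vertical axis) against the shorter probe (horizontal axis) of each measurable member on the 24 arrays. Open symbols are 6 h and filled ones 24 h, red arrays had cytokines and blue ones had none. The points of rno-miR-195-5p and rno-miR-497-5p follow a line (r = 0.88 for each), and those of rno-miR-16-5p scatter more (r = 0.60).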

How the data were processed

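RNA of INS1 cells was hybridized to 24 Agilent rat miRNA arrays (4 slides). The per-array files deposited by the authors give spot intensity in scanner units from Agilent Feature Extraction 10.7.3.1 (file headers; 9.1 in the processing notes). The table deposited by the authors holds log2 values, which equal the spot medians of quantile-normalized signal. The spot annotation deposited by the authors (other than intensities: probe names, sequences and positions, build rn4) was used as given. Here the median signal of 12128 spots was taken without background correction, 715 control spots were removed, and values were quantile normalized, log2 transformed and averaged over 16 spots per miR. limma 3.58.1 in R 4.3.3 was fitted to 8 group means with 16 residual degrees of freedom, with p-values adjusted over 758 miRs. In a test of 3 against 3 arrays alone the smallest exact p is 0.1, so exact tests permuted labels within 4 strata. Correlations used 100000 permutations. Sequences were read with Python 3.11.15 and pandas 2.3.3, and figures drawn with matplotlib 3.10.9. The code was tested on simulated data. There were 15 alternatives besides leaving out each array: pooled correlation over spots, normexp (offset 50), processed signal scaled to the 75th percentile, no normalization, only detected miRs tested, slide as a fixed or a random block, replicate block, brightness covariate, the deposited log2 table and, chosen after seeing the data, leaving out slide 1, the longer probe only (also with processed signal) and, for differences between miRs, slide as a fixed block with processed signal or normexp. The members and lists were chosen with earlier results of these data known. Named miRs were the members, other arms and cluster miRs, the seed relatives, markers and the 3 most alike miRs.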

Additional observations from a re-analysis of the deposited data

How the results depend on the processing

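The count of 0 called members held in all 18 comparisons under 11 of the 12 alternatives run for it and without each array in turn. The exception was no normalization, with 6 members in 24h_Cyt vs 24h_Ctrl, 1 in 24h_Giv_Cyt vs 24h_Giv_Ctrl, 4 in 24h_Cyt vs 6h_Cyt and 1 for averaged cytokines; the median over miRs well above background on all arrays was then 0.83 in the first of these. A replicate block changed no count; over the 28 pairs of groups the correlation of equally numbered arrays had a median of −0.15 (−0.82 to 0.79). Without slide 1, 24h_Cyt keeps 1 array, assumed to vary like the other groups.

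In 24h_Cyt vs 24h_Ctrl the log2FC turned with processed signal for rno-miR-15b-5p (−0.014), rno-miR-16-5p (−0.12) and rno-miR-497-5p (0.021); with slide as a fixed block for rno-miR-15b-5p (−0.097), rno-miR-16-5p (−0.14) and rno-miR-195-5p (−0.053); with brightness as a covariate for the same 3 (−0.44, −0.37 and −0.38); without slide 1 for rno-miR-16-5p (−0.0034); and without normalization for rno-miR-497-5p (0.72), rno-miR-103-3p (0.83), rno-miR-107-3p (0.91) and rno-miR-93-5p (0.64). Without each array it ranged from −0.021 to 0.12 for rno-miR-15b-5p and −0.088 to 0.047 for rno-miR-497-5p. Without normalization rno-miR-106b-5p reached 1.49 and was called (adjusted p = 0.000169), as were the measurable members, rno-miR-103-3p, rno-miR-107-3p and rno-miR-93-5p, all upward.

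In 24h_Giv_Cyt vs 24h_Cyt rno-miR-16-5p was at 0.013 with slide as a fixed block, rno-miR-16-5p, rno-miR-195-5p and rno-miR-497-5p at 0.019, 0.030 and 0.10 with brightness, and rno-miR-497-5p at 0.0076 with processed signal. The averaged cytokine effect turned without normalization for rno-miR-15b-5p (0.37), rno-miR-195-5p (0.22) and rno-miR-497-5p (0.23), with processed signal for rno-miR-16-5p (−0.037), rno-miR-195-5p (0.072) and rno-miR-497-5p (0.00069), for rno-miR-16-5p with slide as a fixed block (−0.034) and brightness (−0.14), and for rno-miR-15b-5p without slide 1 (0.0025). Without each array it ranged from −0.055 to 0.017 for rno-miR-15b-5p, −0.0076 to 0.062 for rno-miR-16-5p and −0.057 to 0.023 for rno-miR-195-5p. The Givinostat effect of rno-miR-195-5p and rno-miR-497-5p was 0.011 and 0.0085 without normalization. The time effect turned with brightness in all 4 (−0.060, −0.075, −0.10 and −0.11), with slide as a fixed block for rno-miR-195-5p (−0.042) and rno-miR-497-5p (−0.052), and without each array ranged from −0.0056 to 0.079 and −0.018 to 0.088 for these.

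Between members, 1 difference passed with normexp and 4 with processed signal, over both probes or the longer only. With slide as a fixed block, chosen after seeing the data, 0 passed in the main signal, 0 with normexp and 1, another one, with processed signal. Between members and relatives, 4 passed with normexp, 0 with processed signal, 0 without normalization, 3 without slide 1, 0 with the longer probe only in either signal, 0 with slide as a fixed block in the main or processed signal and 1 with normexp, and 0 to 7 without each array. The causes were not tested. The log2FC of the measurable members was examined under the alternatives in 24h_Cyt vs 24h_Ctrl, 24h_Giv_Cyt vs 24h_Cyt and the 3 averaged effects only. Of these values, those of rno-miR-15b-5p and rno-miR-16-5p for averaged Givinostat and of rno-miR-15b-5p in 24h_Giv_Cyt vs 24h_Cyt kept their sign under all alternatives, uncalled throughout. Signal over background limits the family to 4 of its 7 members.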

Other observations

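rno-miR-223-3p, a myeloid miR used as a marker, was well above background on 0 of 24 arrays, yet it was called in 24h_Cyt vs 24h_Ctrl (5.70 against 5.95, a difference of −0.24) and in 24h_Cyt vs 6h_Cyt (5.70 against 5.96, −0.25). Both means lie at background, so the difference gives no fold. It was the 1 of 17 marker miRs called in these comparisons, in which 31 (4.09%) and 6 (0.792%) of all 758 miRs were called. The family member with the smallest adjusted p in 24h_Cyt vs 24h_Ctrl, rno-miR-15a-5p, lies in the same range of signal with a difference of the opposite sign (0.12). The miR whose pattern over the arrays was most like rno-miR-15b-5p, rno-miR-25-3p (r = 0.94), comes from the Mcm7 locus that also holds rno-miR-93-5p and rno-miR-106b-5p, whose values in 24h_Cyt vs 24h_Ctrl had opposite signs (−0.40 and 0.34).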
